A study of Mus musculus with 10 samples.

Results

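The BCL2 family sets the threshold at which a cell dies through its mitochondria, and 10 of its genes were examined in 4T1 mammary tumors with and without a knockout guide against the Hippo transducer TAZ. The members were taken by name from the count table and split by their known role. Pro-survival members were Bcl2, Bcl2l1 (BCL-XL) and Mcl1, and pro-death members were the effectors Bax and Bak1 and the BH3-only genes Bcl2l11 (BIM), Bid, Bad, Bbc3 (PUMA) and Pmaip1 (NOXA). All 10 were found among the 17864 genes of the table, and all 10 were among the 14816 genes with enough counts to be tested.

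RNA-seq had been performed on whole tumors from 5 sgCon and 5 sgTaz samples. Both groups were grown from 4T1, a mouse triple-negative mammary carcinoma line of BALB/c origin, carrying Cas9. sgCon tumors came from cells with a lentiviral control guide (sgControl), and sgTaz tumors from cells with a guide against Wwtr1, the gene that encodes TAZ. The hosts were female mice aged 6 to 8 weeks, and the cells were placed orthotopically in a mammary fat pad. The methods name both BALB/c and SCID mice as hosts and the labels do not say which bore these tumors. They do not say either at what time the tumors were taken, or whether the sgTaz cells were 1 clone. The samples are labelled as separate tumors, and p-values measure only the spread between them.

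Total counts per tumor ranged from 14753922 to 19595821 in sgCon and from 12185383 to 18395558 in sgTaz. Wwtr1, in TMM-normalized CPM (counts scaled to a common library size), was at 192, 181, 115, 171 and 156 in sgCon tumors 1 to 5 and at 86.6, 104, 110, 139 and 102 in sgTaz tumors 1 to 5. The sgTaz level was under the whole sgCon range in 4 tumors and within it in sgTaz tumor 4, and the log2 fold change was -0.59 ± 0.151 (SE; adjusted p = 0.0960 by edgeR's quasi-likelihood test with Benjamini-Hochberg adjustment, the test behind each adjusted p that names no other tool). Reads from host cells and reads from an edited but transcribed gene both count towards this level, so it is only a partial check of the labels. Markers of several cell types moved with the groups, and their part in the results was not tested. Tumor epithelial markers were expressed in all 10 tumors, with a summed level of 2194 to 5050 CPM (median 3162) in sgCon and 1621 to 3913 CPM (median 2102) in sgTaz, and all 8 were lower in sgTaz, 5 of them at an unadjusted p below 0.05. All 8 macrophage markers were higher in sgTaz, 6 at this p, with a median sum of 1394 CPM in sgCon and 2053 CPM in sgTaz, and all 7 tested neutrophil markers were lower, 4 at this p, with median sums of 971 and 560.3 CPM. Of all tested genes, 9.86% were higher and 11.9% lower at this p. None of these epithelial, macrophage and neutrophil markers passed an adjusted p of 0.05 by edgeR. DESeq2 called 4 macrophage markers as higher and 2 epithelial and 1 neutrophil markers as lower, against 6.87% of all genes. By limma-voom with sample quality weights these numbers were 5, 2 and 4, against 10.4% of all genes. For each of these cell types the sums overlapped between the groups. Lymphoid markers were lower and uneven: the sum of 12 B cell markers was between 94.0 and 1199 CPM in sgCon tumors, highest in tumor 3, and between 9.42 and 33.4 CPM in sgTaz tumors 1 to 4 against 285 CPM in sgTaz tumor 5. In bulk RNA, fewer cells of a type and less RNA per cell cannot be told apart.

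In healthy cells the pro-survival proteins hold the effectors in check by binding their BH3 domain. BH3-only proteins are the sensors of the family: growth factor loss, DNA damage or stress raises or activates them, and they occupy the groove of the pro-survival proteins or engage the effectors directly. BAX and BAK then form pores in the outer mitochondrial membrane, cytochrome c is released, and caspases are activated. In mammary tissue the family is known for its part in the clearing of the gland after lactation, and MCL1 and BCL-XL are well-studied survival factors of breast cancer cells.

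TAZ acts on genes through the TEAD factors, and the short core that TEAD proteins recognise, GGAATG, was searched on both strands in windows of 300 bases, from 250 before to 50 after each annotated start (RefSeq, GRCm38.p6). Windows were found for 9 of the 10 members, 15 windows in all. The core was found for 2 of these 9 genes, Bcl2l1 and Mcl1, against 14.6% of the 10871 tested genes with a window. Counted by window, 2 of the 15 held it, against 14.7% of all 32851 windows. The other Bcl2l1 windows held no core. The 250 bases before the start are shown for the window with the core in Bcl2l1 and Mcl1, with the core (or its reverse complement, in Mcl1) in capitals. They are also shown for Bbc3, the member with the largest fold change, at its most upstream start, where the core was absent. The sequences run 5′ to 3′ on the strand of the gene, and a match is a description of the letters and not evidence of binding.
Bcl2l1, window chr2:152831679-152831978, minus strand, core 108 bases before the start: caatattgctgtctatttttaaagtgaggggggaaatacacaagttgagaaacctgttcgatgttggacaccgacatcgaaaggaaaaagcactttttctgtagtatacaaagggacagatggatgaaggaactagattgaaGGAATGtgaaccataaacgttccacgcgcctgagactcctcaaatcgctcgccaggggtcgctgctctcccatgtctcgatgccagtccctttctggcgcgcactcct
Mcl1, window chr3:95658471-95658770, plus strand, core 199 bases before the start: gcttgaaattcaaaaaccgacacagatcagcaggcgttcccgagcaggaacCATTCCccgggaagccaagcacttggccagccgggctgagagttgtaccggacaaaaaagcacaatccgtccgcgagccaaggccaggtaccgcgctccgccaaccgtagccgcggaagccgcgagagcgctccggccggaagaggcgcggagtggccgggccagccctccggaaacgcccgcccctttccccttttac
Bbc3, window chr7:16309333-16309632, plus strand, no core: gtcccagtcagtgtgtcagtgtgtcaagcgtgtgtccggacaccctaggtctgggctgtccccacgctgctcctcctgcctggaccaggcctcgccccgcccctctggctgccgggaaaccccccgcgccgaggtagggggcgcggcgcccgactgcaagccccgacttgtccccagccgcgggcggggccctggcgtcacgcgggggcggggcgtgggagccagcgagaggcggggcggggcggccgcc
The Bbc3 window was rich in G and C, 76% over its 300 bases with 34 CpG dinucleotides, and that of Mcl1 held 65.7% with 33. The Bcl2l1 window held 52.3%, close to the median of 52.7% over all 32851 windows, with 22 CpG.

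To compare members with each other, CPM were divided by the exon length of the gene. Mcl1 had the highest level per length, with a mean of 119 CPM per kb in sgCon and 104 in sgTaz tumors (n = 5 each), and in every tumor it stood above all other members. The effectors followed, Bax at 42.3 and 39.5 CPM per kb and Bak1 at 39.6 and 43.1 in sgCon and sgTaz tumors, and their ranges overlapped. A middle group was made of Bcl2l1 at 17.9 and 14.5, Bcl2l11 at 14.6 and 13.3, Bid at 12.3 and 13.0, Bcl2 at 11.6 and 13.6 and Bad at 11.3 and 11.2, in which each gene overlapped the next in the order of sgCon means. Bbc3, at 7.02 and 4.58 CPM per kb, and Pmaip1, at 5.55 and 5.17, were lowest and overlapped each other. In sgTaz tumors Bbc3 stayed at or under 4.99 CPM per kb and did not reach the lowest Bad level of 10.3, whereas sgCon tumor 3, at 10.2, did reach the range of Bad.

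**Figure D1:**
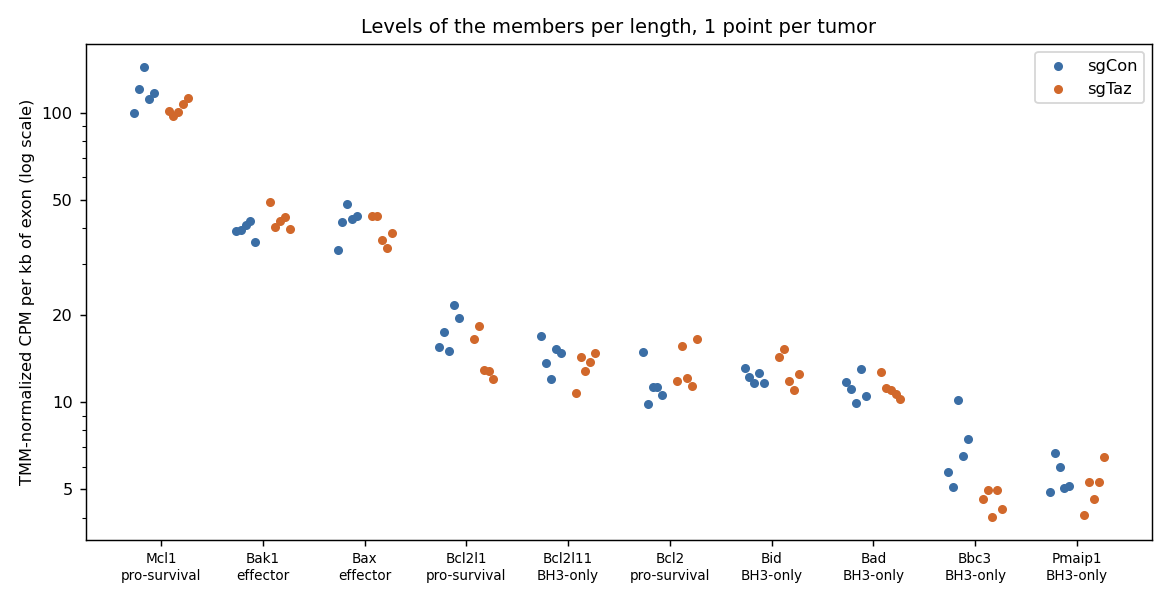
Levels of the 10 members per length, in TMM-normalized CPM per kb of exon on a log axis, with 1 point for each of the 5 sgCon (blue) and 5 sgTaz (orange) tumors, ordered by mean level. Mcl1 stands above all other members in every tumor, the effectors Bak1 and Bax come next, and Bbc3 and Pmaip1 are lowest.

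None of the 10 members passed an adjusted p of 0.05, a threshold that 0.00675% of all tested genes (1 of 14816) passed in this test. At an unadjusted p below 0.05 stood 1 of 10 members, Bbc3, against 21.8% of all tested genes. DESeq2 called 1 member, Bbc3, against 6.87% of genes (3.38% higher and 3.50% lower in sgTaz). The other tool, limma-voom with sample quality weights, called 1, Bcl2l1, against 10.4% of genes (4.63% higher and 5.80% lower). A single member of 10 past a threshold was a share near or below these backgrounds. The median log2 fold change was -0.20 over the 3 pro-survival members and -0.10 over the 7 pro-death members, against -0.02 over all tested genes. Single tumors moved these medians: the first was -0.11 without sgCon tumor 3, and the second was -0.03 without sgCon tumor 2 and -0.05 without sgCon tumor 3 or sgTaz tumor 4. Fitted values were above 0 for 3 members (Bcl2, Bak1 and Bid) and below 0 for 7.

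**Figure D2:**
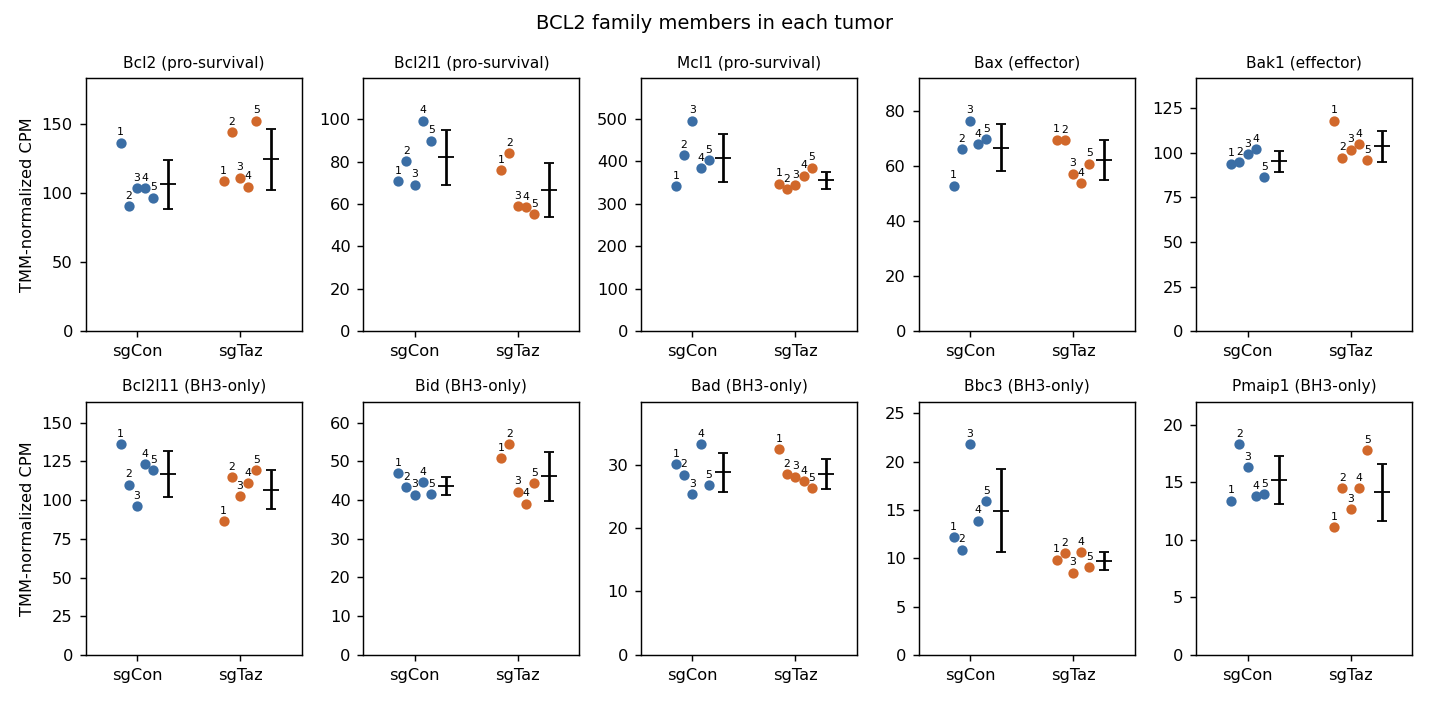
Level of each member in each tumor, in TMM-normalized CPM, with axes that start at 0. Points are tumors, numbered 1 to 5 within sgCon (blue) and sgTaz (orange), and the bars are the mean ± SD (n = 5). Only for Bbc3 do all 5 sgTaz tumors lie below all 5 sgCon tumors.

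Among the pro-survival genes, Bcl2 (ENSMUSG00000057329.7, mm10 chr1:106538178-106714274, minus strand) encodes the founding member, best known for its part in lymphoid cells. Its level was 136, 90.6, 103, 104 and 96.6 CPM in sgCon tumors 1 to 5, and 109, 144, 111, 104 and 152 CPM in sgTaz tumors 1 to 5. The groups overlapped, but the highest 2 tumors, sgTaz 5 and sgTaz 2, were both sgTaz, and sgCon tumor 1 stood well above the other 4 sgCon tumors. Means were 106 ± 17.8 and 124 ± 22.3 CPM (SD, n = 5), and the log2 fold change of 0.23 had a 95% interval from -0.08 to 0.53 (adjusted p = 0.358). Without sgTaz tumor 5 it was 0.14 and without sgCon tumor 1 it was 0.33. An antisense gene shares 558 of the exon bases of Bcl2, and the strand setting of the counting was not stated.

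Bcl2l1 (ENSMUSG00000007659.18, mm10 chr2:152780668-152831728, minus strand) encodes BCL-XL, a broad inhibitor of both effectors. The sgCon tumors 1 to 5 had 71.0, 80.4, 69.2, 99.4 and 89.9 CPM, and the sgTaz tumors 75.9, 84.1, 59.0, 58.7 and 55.1 CPM. Of the sgTaz tumors, 3 lay below every sgCon tumor, while sgTaz 1 and sgTaz 2 lay within the sgCon range. The mean was 82.0 ± 12.8 CPM in sgCon and 66.5 ± 12.7 CPM in sgTaz (SD, n = 5), and the log2 fold change was -0.30, with a 95% interval from -0.61 to 0.01 and an adjusted p of 0.242. It was past the threshold in limma-voom with sample quality weights, at -0.42 with an adjusted p of 0.0398, and not in DESeq2, at -0.28 with an adjusted p of 0.274. Over all settings the fold change lay between -0.58 and -0.20 and the adjusted p between 0.0398 and 0.498.

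Mcl1 (ENSMUSG00000038612.16, mm10 chr3:95658788-95663176, plus strand) encodes a short-lived protein that holds BAK and BIM and is needed by neutrophils and many lymphocytes. Levels were 341, 414, 495, 383 and 403 CPM in sgCon tumors 1 to 5 and 347, 334, 344, 366 and 384 CPM in sgTaz tumors. The highest level was in sgCon tumor 3, the tumor with the most B cell markers, and sgTaz tumor 5, which had the most among sgTaz tumors, was also the highest of its group. Beyond these tumors the orders differed. sgCon tumor 4, the lowest sgCon tumor in B cell markers (94.0 CPM), had more Mcl1 than tumor 1 (197 CPM of markers). Likewise, sgCon tumor 2 (300 CPM of markers) had more Mcl1 than tumor 5 (587 CPM). With means of 407 ± 56.5 and 355 ± 20.2 CPM (SD, n = 5), the log2 fold change was -0.20 (95% interval -0.41 to 0.01, adjusted p = 0.251), and it was -0.11 without sgCon tumor 3. Corrected for GC content and gene length, it was -0.10. With a score of lymph node stroma genes in the fit it was -0.05, but that score nearly followed the groups, so this fit separates group from score poorly. The part of immune cells in this difference was not tested.

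The effector Bax (ENSMUSG00000003873.11, mm10 chr7:45461697-45466898, minus strand) had 52.9, 66.2, 76.5, 68.0 and 69.7 CPM in sgCon tumors 1 to 5 and 69.6, 69.4, 57.2, 53.8 and 60.9 CPM in sgTaz tumors. Every sgTaz tumor lay within the sgCon range. The log2 fold change was -0.10 (95% interval -0.34 to 0.14, adjusted p = 0.625), and it was above 0, at 0.03, after a correction for GC content and length.

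The other effector, Bak1 (ENSMUSG00000057789.14, mm10 chr17:27019810-27029009, minus strand), had 94.0, 94.9, 99.2, 102 and 86.2 CPM in sgCon tumors 1 to 5 and 118, 97.3, 102, 105 and 95.9 CPM in sgTaz tumors. Among the sgCon tumors its spread was small (6.28% of the mean), and sgTaz tumors 1 and 4 lay above every sgCon tumor. Its log2 fold change was 0.12 (95% interval -0.04 to 0.29, adjusted p = 0.363). After the correction for GC content and length it was 0.25 (unadjusted p = 0.0124, adjusted p = 0.150 by edgeR), and without sgTaz tumor 1 it was 0.07. The interval of the fold was 0.971 to 1.22 for Bak1 and 0.790 to 1.10 for Bax. Ggnbp1, on the opposite strand, shares 437 exon bases with Bak1, and Gm45808, on the same strand, shares 192 with Bax.

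Bbc3 (ENSMUSG00000002083.13, mm10 chr7:16308393-16318205, plus strand) encodes PUMA, a BH3-only protein that p53 induces and that binds every pro-survival protein. Its level was 12.2, 10.9, 21.8, 13.9 and 15.9 CPM in sgCon tumors 1 to 5 and 9.87, 10.5, 8.52, 10.6 and 9.09 CPM in sgTaz tumors 1 to 5. All 5 sgTaz tumors lay below all 5 sgCon tumors, with the lowest sgCon tumor at 10.9 and the highest sgTaz tumor at 10.6 CPM, and sgCon tumor 3 was the highest. This was 1 of 10 members whose groups did not overlap, against 4.57% of all tested genes (2.13% lower and 2.44% higher in sgTaz). Means were 14.9 ± 4.27 and 9.72 ± 0.906 CPM (SD, n = 5), and the sgTaz level was 0.652 times that of sgCon (95% interval 0.495 to 0.859). The log2 fold change of -0.62 ± 0.181 (SE) had an adjusted p of 0.113 by edgeR, 0.0393 by DESeq2 and 0.0602 by limma-voom with sample quality weights. The unadjusted edgeR p of 0.00566 was undercut by 5.02% of all tested genes.

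Bbc3 moved with the lymphoid markers in some of these libraries and not in others. The sgCon tumor with the highest Bbc3, tumor 3, had the highest sums of B cell (1199 CPM), T cell (1046 CPM) and lymph node stroma markers (381 CPM), and sgCon tumor 5, the next in Bbc3, was the next in B cell markers (587 CPM). The other sgCon tumors did not follow this order: tumor 4, the third in Bbc3 at 13.9 CPM, had the lowest sgCon sums of B cell (94.0 CPM), T cell and lymph node stroma markers, and tumor 2, the lowest in Bbc3, was the third in B cell markers. Nor did sgTaz tumor 5: with 285 CPM of B cell and 267 CPM of lymph node stroma markers it had 9.09 CPM of Bbc3, below sgTaz tumors 1, 2 and 4. All 12 B cell markers were lower in sgTaz, 10 of them at an unadjusted p below 0.05 (against 11.9% of all tested genes). At an adjusted p below 0.05 stood none by edgeR and by DESeq2 and 11 by limma-voom with sample quality weights. Cr2, Fcer2a, Blk and Ms4a1 were at 0 in at least 1 tumor. Without sgCon tumor 3 the log2 fold change of Bbc3 was -0.43 (adjusted p = 0.161), and without sgTaz tumor 5 it was -0.59 (adjusted p = 0.144). With the lymph node stroma score in the fit it was -0.54 (SE 0.277 against 0.181 without the score, adjusted p = 0.471). The score nearly followed the groups. Its markers summed to 24.3 to 381 CPM in sgCon tumors and to 0.318 to 2.73 CPM in sgTaz tumors 1 to 4. This fit therefore separates group from score poorly, and genes at an unadjusted p below 0.05 fell from 3226 to 1665. Over all settings the adjusted p of Bbc3 lay between 0.0393 and 0.471. The part of lymphoid tissue in the difference was not tested.

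**Figure D3:**
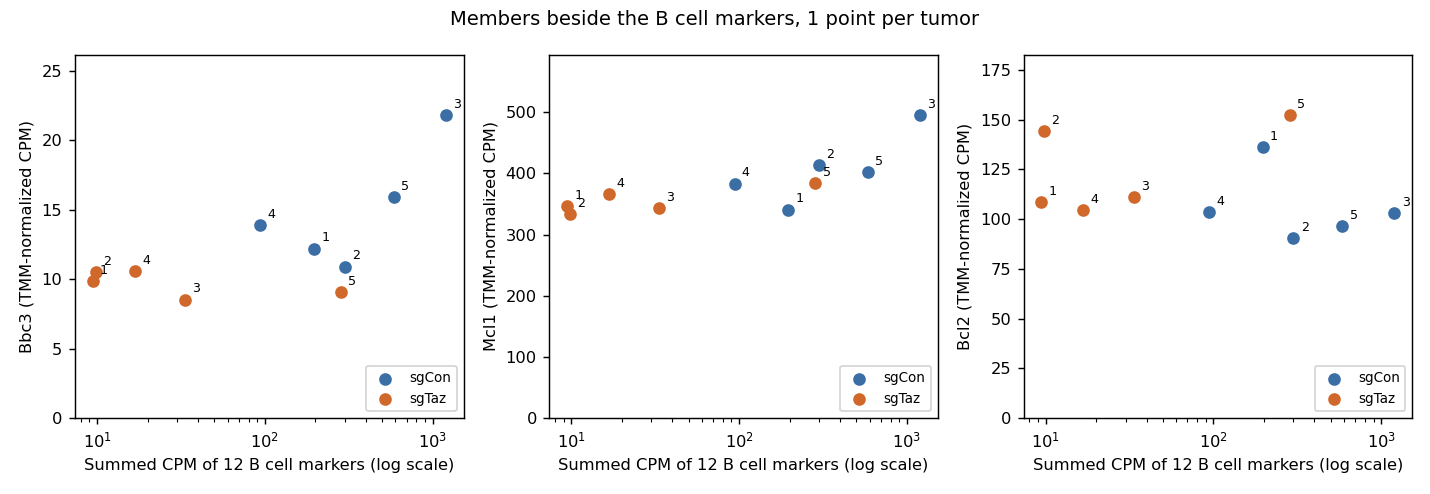
Bbc3, Mcl1 and Bcl2 in TMM-normalized CPM (vertical axes, from 0) against the summed CPM of 12 B cell markers (horizontal axis, log scale), with 1 numbered point for each sgCon (blue) and sgTaz (orange) tumor. sgCon tumor 3 is highest in B cell markers, Bbc3 and Mcl1, while sgTaz tumor 5 has B cell markers in the sgCon range and Bbc3 at 9.09 CPM. Bcl2 shows no such order.

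Bcl2l11 (ENSMUSG00000027381.16, mm10 chr2:128126038-128162547, plus strand) encodes BIM, the BH3-only protein of cytokine and growth factor withdrawal. The sgCon tumors 1 to 5 had 136, 110, 96.2, 123 and 119 CPM and the sgTaz tumors 86.6, 115, 102, 111 and 119 CPM. The groups overlapped except for sgTaz tumor 1, which was the lowest of all 10. Its log2 fold change was -0.13 (95% interval -0.37 to 0.11, adjusted p = 0.504).

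Bid (ENSMUSG00000004446.12, mm10 chr6:120891930-120916853, minus strand) encodes the protein that caspase-8 cleaves to link death receptors to mitochondria. Levels of 47.0, 43.3, 41.4, 44.7 and 41.5 CPM in sgCon tumors 1 to 5 stood against 50.9, 54.4, 42.2, 39.1 and 44.3 CPM in sgTaz tumors. The spread was wider among sgTaz tumors (13.7% of the mean) than among sgCon tumors (5.41%), with sgTaz 1 and 2 above and sgTaz 4 below every sgCon tumor. This gave a log2 fold change of 0.08 (95% interval -0.13 to 0.30, adjusted p = 0.650). Bid shares 628 exon bases with Bcl2l13, another family gene, on the opposite strand.

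Bad (ENSMUSG00000024959.14, mm10 chr19:6941861-6951899, plus strand) encodes the BH3-only protein that survival kinases such as AKT keep inactive by phosphorylation. It was the member with the fold change closest to 0. The sgCon tumors 1 to 5 had 30.1, 28.4, 25.4, 33.2 and 26.8 CPM and the sgTaz tumors 32.4, 28.5, 28.1, 27.4 and 26.3 CPM, all within the sgCon range. The log2 fold change was -0.01 (95% interval -0.22 to 0.20, adjusted p = 0.952), and 524 of its exon bases are shared with Gpr137 on the opposite strand.

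Pmaip1 (ENSMUSG00000024521.8, chromosome 18, plus strand) encodes NOXA, which p53 and the integrated stress response induce and which binds mainly MCL1. Its levels were 13.4, 18.3, 16.3, 13.8 and 14.0 CPM in sgCon tumors 1 to 5 and 11.1, 14.5, 12.7, 14.5 and 17.8 CPM in sgTaz tumors. sgTaz tumors 1 and 3 were below every sgCon tumor, and sgTaz tumor 5 was second only to sgCon tumor 2. The fitted log2 fold change was -0.11 (95% interval -0.42 to 0.21, adjusted p = 0.699). Bbc3 and Pmaip1, both known p53 targets and close in level, thus had fitted changes of -0.62 and -0.11, and the difference between them was not tested.

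**Figure D4:**
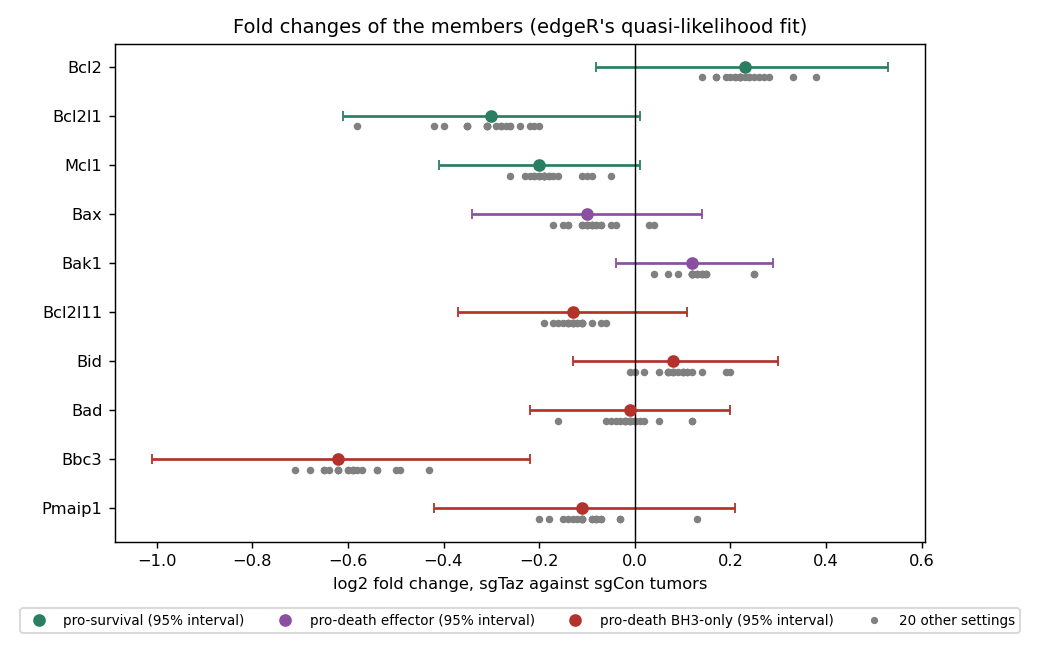
log2 fold change of each member in sgTaz against sgCon tumors (horizontal axis), with the edgeR estimate and its 95% interval in the color of the role and, in grey under it, the estimates of 20 other settings. The interval of Bbc3, from -1.01 to -0.22, is the only one that leaves out 0, and its estimates under all settings lie between -0.71 and -0.43.

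The balance of the family was described by summing the levels per length within each role. The 3 pro-survival genes summed to 149 ± 14.7 CPM per kb in sgCon and 132 ± 5.70 in sgTaz tumors (SD, n = 5), and the 7 pro-death genes to 133 ± 6.05 and 130 ± 7.52. Pro-survival genes thus made up 51.0, 53.3, 55.1, 51.3 and 53.3% of the sum in sgCon tumors 1 to 5 and 48.2, 49.3, 50.5, 51.5 and 52.7% in sgTaz tumors. The mean was 52.8 ± 1.70% in sgCon and 50.4 ± 1.77% in sgTaz, a difference of -2.35 percentage points between groups whose ranges overlapped. With 1 tumor left out the difference lay between -2.91 and -1.77 points. With the longest transcript as length the shares were 48.7 ± 1.43% in sgCon and 46.5 ± 1.44% in sgTaz, a difference of -2.22 points. Which role had the larger sum thus depended on the length used. Mcl1 carried most of the pro-survival sum. Without it the share lay between 15.9 and 19.5% in sgCon and between 16.4 and 20.1% in sgTaz tumors.

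Across the 10 tumors, the pair of members whose log2 CPM were most alike was Mcl1 and Bbc3, with Pearson's r = 0.767, and the pair most unlike was Bak1 and Bcl2l11, with r = -0.686. This order did not hold with the group means taken off: the most alike pair was then Bcl2 and Bcl2l11 (0.636, with Mcl1 and Bbc3 at 0.618) and the most unlike was Mcl1 and Bad (-0.664, with Bak1 and Bcl2l11 at -0.624). All of these values describe the same 10 libraries and carry no test.

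The rest of the pathway was read from 6 lists, in which none of the genes passed an adjusted p of 0.05 by edgeR. Of the other BCL2 family genes, 12 were tested and none stood below an unadjusted p of 0.05. They include the pro-survival Bcl2l2 (BCL-W; 44.6 CPM in sgCon and 46.3 in sgTaz tumors, log2 fold change 0.05), the effector-like Bok (52.6 and 48.8 CPM, -0.11) and the BH3-only gene Bmf (26.2 and 27.8 CPM, 0.09). The near-identical genes Bcl2a1a, Bcl2a1b and Bcl2a1d had log2 fold changes of 0.08, 0.11 and 0.12, and reads may be split among them, Bcl2a1b also sharing 401 exon bases with Gm29094. DESeq2 called none of this list, and limma-voom with sample quality weights called 1, the mitophagy gene Bnip3 (128 and 107 CPM, log2 fold change -0.26 and adjusted p = 0.370 by edgeR, adjusted p = 0.0468 by limma-voom), which was named after its values were seen.

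Downstream of the effectors, 16 genes of the mitochondrial machinery and of the caspases were tested, with 1 higher and 1 lower at an unadjusted p below 0.05, against 9.86% and 11.9% of all tested genes. The gene lower in sgTaz was Dffb, the nuclease that cuts DNA in dying cells. It had 8.17, 8.51, 14.6, 8.16 and 9.72 CPM in sgCon tumors 1 to 5 and 6.17, 7.49, 6.86, 5.10 and 8.15 CPM in sgTaz tumors, with no overlap (log2 fold change -0.54, adjusted p = 0.161 by edgeR). Mtch2, the mitochondrial receptor of BID, was at 82.0 ± 5.46 CPM in sgCon and 92.4 ± 4.90 CPM in sgTaz tumors (SD, n = 5; log2 fold change 0.17, adjusted p = 0.180). The initiator caspase gene Casp9, at 8.98 and 12.0 CPM, had a log2 fold change of 0.41 (adjusted p = 0.238 by edgeR). Of 7 caspase inhibitors none stood below an unadjusted p of 0.05, with log2 fold changes from -0.33 (Birc3) to 0.23 (Naip2).

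In the death receptor pathway, which reaches the family through BID, 12 genes were tested, with 2 higher and 2 lower at an unadjusted p below 0.05, against 9.86% and 11.9% of all tested genes. Tnfsf10, the ligand TRAIL, was at 49.5, 58.7, 59.5, 45.5 and 48.8 CPM in sgCon tumors 1 to 5 and at 75.8, 90.7, 78.9, 68.0 and 91.8 CPM in sgTaz tumors. The groups did not overlap and the log2 fold change was 0.63 ± 0.108 (SE), with an adjusted p of 0.0824 by edgeR, 7.03e-05 by DESeq2 and 0.0228 by limma-voom. Its receptor Tnfrsf10b was at 36.4 and 34.2 CPM (log2 fold change -0.09, adjusted p = 0.731 by edgeR). Fas, the receptor of FAS ligand, was at 14.8 ± 3.84 and 10.1 ± 1.43 CPM (SD, n = 5; log2 fold change -0.55, adjusted p = 0.129 by edgeR), and its highest tumor was again sgCon tumor 3, at 21.4 CPM. Tradd, the adaptor of the TNF receptor, was at 31.1 ± 3.93 and 24.0 ± 3.63 CPM (log2 fold change -0.38, adjusted p = 0.132 by edgeR and 0.0303 by limma-voom), and the receptor Tnfrsf1a at 91.5 ± 8.94 and 103 ± 1.94 CPM (0.17, adjusted p = 0.204 by edgeR).

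**Figure D5:**
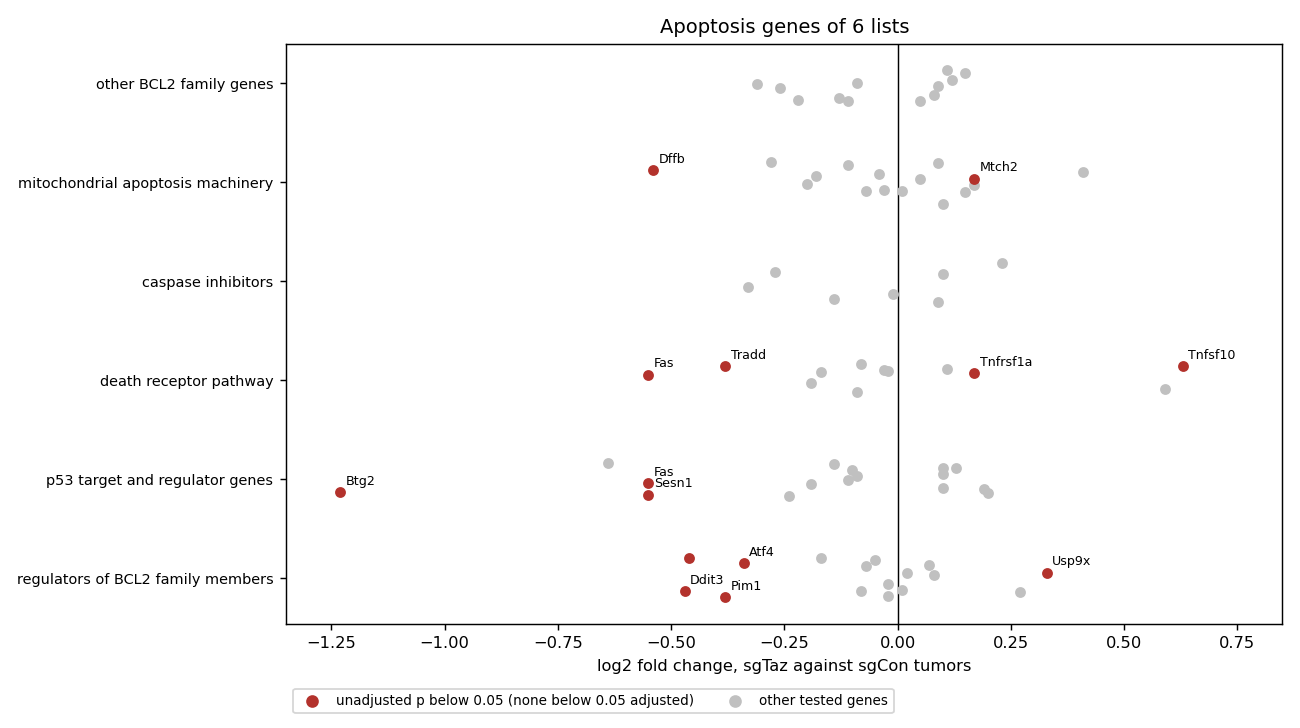
log2 fold change in sgTaz against sgCon tumors (horizontal axis) of the tested genes of 6 apoptosis lists (1 row each, points spread vertically for legibility). Red points have an unadjusted p below 0.05 by edgeR, none has an adjusted p below 0.05, and the unlabelled red point is Trib3. Tnfsf10, at 0.63, is the point farthest to the right and Btg2, at -1.23, the farthest to the left.

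Bbc3 and Pmaip1 are targets of p53, and 16 other targets and regulators of p53 gave 0 higher and 3 lower at an unadjusted p below 0.05, beside the 9.86% and 11.9% of all tested genes. The 3 were Fas, which is in both lists, the antioxidant regulator Sesn1 (51.3 ± 16.5 and 35.1 ± 4.85 CPM, log2 fold change -0.55, adjusted p = 0.146 by edgeR) and the antiproliferative gene Btg2. Btg2 was at 44.6, 53.6, 135, 29.4 and 70.6 CPM in sgCon tumors 1 to 5 and at 18.5, 19.4, 27.5, 32.5 and 44.4 CPM in sgTaz tumors. Its order of sgCon tumors put tumor 3 first and tumor 5 next, as for Bbc3, but the other tumors did not follow Bbc3. Tumor 4, the third sgCon tumor in Bbc3, was the lowest in Btg2. In sgTaz, tumor 5 was the highest in Btg2 and had 9.09 CPM of Bbc3, below sgTaz tumors 1, 2 and 4. The log2 fold change of Btg2 was -1.23 ± 0.383 (SE; adjusted p = 0.123 by edgeR, 0.0193 by DESeq2 and 0.0479 by limma-voom). Cdkn1a, the p53 target that stops the cell cycle, was at 42.4 and 39.3 CPM (log2 fold change -0.11, adjusted p = 0.607 by edgeR), Mdm2, which degrades p53, at 79.4 and 71.9 CPM (-0.14, 0.411), and Trp53 itself at 64.9 and 55.0 CPM (-0.24, 0.314). The genes of this list that are named here all had fitted values below 0. Over the whole list of 16, fitted values were above 0 for 6 and below 0 for 10, with a median of -0.10.

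Among 16 regulators that act on family members, an unadjusted p below 0.05 was found for 1 with a higher and 4 with a lower level in sgTaz, where all tested genes gave 9.86% and 11.9%. With lists of this size, no difference from all genes is read from these counts. Ddit3 (CHOP), a stress factor known to induce Bcl2l11 and Bbc3, was at 21.1, 16.2, 20.1, 16.1 and 19.0 CPM in sgCon tumors 1 to 5 and at 13.0, 13.8, 13.2, 15.1 and 11.6 CPM in sgTaz tumors. The groups did not overlap (log2 fold change -0.47 ± 0.116 SE, adjusted p = 0.0960 by edgeR, 0.0129 by DESeq2 and 0.0338 by limma-voom), and 68 exon bases are shared with Mars. Atf4, which lies upstream of Ddit3 and of Pmaip1, was at 207 ± 20.8 and 163 ± 24.6 CPM (SD, n = 5; -0.34, adjusted p = 0.126 by edgeR and 0.0340 by limma-voom), and Trib3, a target of both that was named after its values were seen, at 26.5 and 19.2 CPM (-0.46, adjusted p = 0.152 by edgeR and 0.0368 by limma-voom). Chac1, of the same list, went the other way, at 2.83 and 3.42 CPM (0.27, adjusted p = 0.460 by edgeR). Of the 16 regulators, 6 had fitted values above 0 and 10 below 0. Pim1, a kinase that phosphorylates BAD, was at 69.7 ± 11.1 and 53.5 ± 8.24 CPM (-0.38, adjusted p = 0.140 by edgeR), with 488 exon bases shared with an antisense gene. Usp9x, a deubiquitinase that stabilises MCL1, was at 136 ± 30.2 and 171 ± 19.1 CPM (0.33, adjusted p = 0.212 by edgeR). Foxo3, which induces Bcl2l11 and Bbc3, was at 62.7 and 60.5 CPM, with a log2 fold change of -0.05 (adjusted p = 0.625 by edgeR).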

How the data were processed

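Whole-tumor RNA of 5 sgCon and 5 sgTaz 4T1 tumors was sequenced on an Illumina HiSeq instrument. Reads were aligned by the authors to mm10 with STAR (two-pass) and a GENCODE annotation. RSeQC was used for quality control, and featureCounts of Subread gave the counts per gene. Tool versions and the strand setting are not given in the sources used here, and the submitters' processing notes also name CASAVA. The deposited values are these raw counts of the authors for 17864 genes, without normalization. The table holds 5 further columns that match no labelled sample and were not used.

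Genes were named through GENCODE M21, in which 17860 of 17864 identifiers were found. The test was run in edgeR 4.0.16 under R 4.3.3 (filterByExpr by group, TMM, glmQLFit and glmQLFTest with all 10 tumors and the group as only term, Benjamini-Hochberg adjusted p below 0.05 over 14816 genes). The study's methods name DESeq2; DESeq2 1.42.0 and limma 3.58.1 (voom with sample quality weights) were alternatives. Figures were drawn in Python 3.11.15 with matplotlib 3.10.9. Group means, SD and values per tumor are TMM-normalized CPM. Levels per length use the merged exons of a gene, and the share of pro-survival genes was also taken with the longest transcript. The scripts were tested on simulated counts with known changes. Total counts were 12185383 to 19595821 per tumor, and 3 counts, the limit that a count of 0 allows, were 1.53e-05% to 2.46e-05% of them. This limit covers counting error only.

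The members and lists were chosen with earlier results of these data known. Named in the text are all 10 members, Wwtr1, and from each list up to 3 genes in each direction with the smallest unadjusted p below 0.05 and a mean of at least 1 CPM. Members of the lists named as further examples, with p-values above that limit, were picked by their role after the values were seen. For each member the 2 genes with the highest Pearson's r of log2 CPM (prior count 2) over the 10 tumors are also named. Other settings were RLE and upper-quartile normalization, no filter, at least 10 counts in every tumor, each tumor left out, the replicate number as a block, a spline correction for GC content and length, and a lymph node stroma score as covariate. Promoter windows came from RefSeq (GRCm38.p6).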

Additional observations from a re-analysis of the deposited data

Results flagged for a closer look

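In 10 of 74 groups of 5 tumors, the highest or lowest tumor stood apart from the nearest other by more than 0.710 of the whole range, Dixon's critical value. Chance alone gives about 3.70 for independent and normally distributed groups. The groups here share tumors and some marker sums are skewed, so no excess is read from this count. Among the members this was Bcl2, at 136 CPM in sgCon tumor 1 against 90.6 to 104 CPM in the other sgCon tumors. Among the pathway genes it was Dffb, at 14.6 CPM in sgCon tumor 3 against 8.16 to 9.72, and Fas, at 21.4 CPM in the same tumor against 11.4 to 14.1.

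The other 7 were sums of cell type markers. In sgCon tumor 3 the lymph node stroma and high endothelium markers summed to 381 CPM against 24.3 to 108 in the other sgCon tumors (Ccl19, Clec4g, Chst4, Madcam1 and Glycam1 were at 0 in at least 1 tumor), and the skeletal muscle markers to 42.9 CPM against 7.88 to 16.9. In sgTaz tumor 5 the B cell markers summed to 285 CPM against 9.42 to 33.4 in the other sgTaz tumors, the T cell markers to 315 CPM against 114 to 151, and the lymph node stroma markers to 267 CPM against 0.318 to 2.73. In sgTaz tumor 2 the tumor epithelial markers summed to 3913 CPM against 1621 to 2185, and the skeletal muscle markers to 31.5 CPM against 6.59 to 11.2. sgTaz tumor 2 was also the highest sgTaz tumor for Bcl2l1 (84.1 CPM) and Bid (54.4 CPM). The part of cell content in the levels of the members was not tested.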

How the results depend on the processing

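Of 14816 genes, 1 passed the threshold by edgeR. Counts were 1081 by DESeq2 (531 higher, 550 lower), 1546 by limma-voom with sample quality weights (686 higher, 860 lower), 5 with at least 10 counts in every tumor (4 higher, 1 lower), and 0 without a filter (3610 at an unadjusted p below 0.05), with the GC and length correction (3045) and with the lymph node stroma score (1665). Leaving out 1 tumor gave 0 to 172 genes (0 to 42 higher, 0 to 130 lower), with 172 without sgTaz tumor 5 and 75 without sgTaz tumor 2. Replicate numbers did not pair the tumors: the correlations of same-numbered deviations were -0.150, -0.243, -0.0490, 0.0932 and 0.221. With the replicate block 0 genes passed (2462 unadjusted), and 0 with the block and the GC and length correction (2641 unadjusted).

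Members past the threshold numbered 0, but 1 by DESeq2 (Bbc3, log2 fold change -0.60) and 1 by limma-voom (Bcl2l1, -0.42). They numbered 0 in every fit without 1 tumor, and in those fits Bbc3 lay between -0.71 and -0.43. By limma-voom 1 of 12 other BCL2 family genes, 2 of 12 death receptor genes, 2 of 16 p53 genes and 3 of 16 regulators passed. Of all genes, 10.4% passed by this tool. By DESeq2 1 gene passed in each of the last 3 lists, against 6.87% of all genes. By edgeR without sgTaz tumor 5 the death receptor list held 1 (0 to 1 over the tumors left out). The direction turned for Bax (0.03 with the GC and length correction, 0.04 with the block too), Bid (-0.01 by limma-voom, -0.00 with the stroma score), Pmaip1 (0.13 with the stroma score) and Bad (0.00 by DESeq2, 0.01 without a filter, 0.12 with the GC and length correction with or without the block, and -0.06 to 0.05 without 1 tumor). The pro-death median became 0.03 with that correction and 0.04 with the block too, while the median of all genes went from -0.02 to 0.04. The pro-survival median of -0.20 became -0.05 with the stroma score, -0.10 with the GC and length correction, -0.09 with the block too and -0.11 without sgCon tumor 3. The stroma score nearly followed the groups, so the fit with it separates group from score poorly. The causes were not tested.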

Other observations

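For each member, the 2 genes with the most similar log2 CPM across the 10 tumors were listed among 14064 genes, as a description without a test, since every value rests on the same 10 libraries and the highest of so many correlations is large by construction. Bcl2 was most like Atp6v0c-ps2 (Pearson's r = 0.907) and Smpd4 (0.886), the lowest top values of the family. Bcl2l1 was most like Mrps9 (0.960), a mitochondrial ribosomal protein gene, and Pdcd5 (0.955). Mcl1 was most like the actin nucleation gene Actr3 (0.980) and the NF-kappaB inhibitor gene Nfkbia (0.971).

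Bax was most like BC037034 (0.959) and Dtx2 (0.950), and Bak1 like Btd (0.954) and Rerg (0.952). Among the BH3-only genes, Bcl2l11 was most like Eif4a2 (0.956) and Kcnk1 (0.939), Bid like Rbm43 (0.951) and Ccnjl (0.929), and Bad like the cell cycle gene Cdca7 (0.962) and the replication gene Rpa3 (0.952). Bbc3 was most like the sugar transporter gene Slc50a1 (0.969) and 4833420G17Rik (0.964), and Pmaip1 like Tnfsf14 (0.929) and Rasgrp4 (0.916), both genes of immune cells. With the group means taken off, 7 of these 20 pairs were again among the 2 most alike, and with a prior count of 0.5 all 20 were.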
